A study of Mus musculus with 12 samples.

Results

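The genes described here are 10 core cyclins and cyclin-dependent kinases of the mouse, namely the D-type cyclins Ccnd1, Ccnd2 and Ccnd3, the E-type cyclins Ccne1 and Ccne2, the A- and B-type cyclins Ccna2, Ccnb1 and Ccnb2, and the kinases Cdk1 and Cdk2. They were chosen by symbol, and 9 of the 10 had a probe among the 19057 genes measured. No probe was annotated to Ccnb1, which was not analysed here. The 9 genes had 21 probes in all, and each gene was represented by its brightest probe.

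RNA was measured in the spleens of 12 male C57BL/6J mice, 4 on each of 3 diets, which reached the laboratory at 6 weeks of age, were acclimatized for 3 weeks and were then fed for 8 weeks. HFD-ED, the high-fat diet with an oil rich in the n-3 fatty acids EPA and DHA, held 15 g fat per 100 g (3 g corn oil, 10 g coconut oil and 2 g of the EPA/DHA oil) and 1 g cholesterol. HFD-CO held the same amounts of fat, coconut oil and cholesterol with 5 g corn oil, and the control diet held 5 g fat, from 2.5 g corn oil and 2.5 g coconut oil, without added cholesterol. The authors picked the mice for the arrays from larger groups to represent each diet, going by body weight and by cholesterol and triglyceride in plasma, so they were not a random draw. A text in the labels names skeletal muscle, whereas the tissue label and titles name spleen, and the B-cell marker Cd79b averaged 12.5 on HFD-ED, and 12.9 on control, on a log2 scale that reached 14.79.

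Cyclins switch on the kinases that drive the cell cycle, and most of them are made and destroyed within each cycle. D-type cyclins act in G1 with Cdk4 and Cdk6 and start the phosphorylation of the retinoblastoma protein, which frees E2F factors. E-type cyclins bind Cdk2 at the entry into S phase, cyclin A2 acts through S phase and G2, and the B-type cyclins bind Cdk1 and carry the cell into mitosis. In spleen, dividing cells include activated lymphocytes of the white pulp and, in mice, red cell and myeloid precursors of the red pulp. In a whole spleen, fewer cells of a type and less RNA per cell cannot be told apart.

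The promoters of 6 of the 10 genes were in the set of RefSeq promoters used here (build GRCm38.p6), with 7 windows of 300 bases, 250 before and 50 after the start site. Those of Cdk1, Ccnd3 and Ccne1 are shown because the levels of these genes went up and down together from mouse to mouse, and that of Cdk2 because the level of its brightest probe did not follow them. Capitals mark matches, on either strand, to the cell cycle genes homology region (CHR) motif TTTGAA, to CCAAT, and to the E2F motifs TTCCCGC and TTGGCGC. The reverse complement of TTGGCGC is GCGCCAA, which can overlap CCAAT. Sequences run 5′ to 3′ along the strand of the gene: Cdk1 at chr10:69352863-69353162 (minus), the Ccnd3 windows at chr17:47504801-47505100 and chr17:47593217-47593516 (plus), Ccne1 at chr7:38107441-38107740 (minus) and Cdk2 at chr10:128705002-128705301 (minus).
Cdk1: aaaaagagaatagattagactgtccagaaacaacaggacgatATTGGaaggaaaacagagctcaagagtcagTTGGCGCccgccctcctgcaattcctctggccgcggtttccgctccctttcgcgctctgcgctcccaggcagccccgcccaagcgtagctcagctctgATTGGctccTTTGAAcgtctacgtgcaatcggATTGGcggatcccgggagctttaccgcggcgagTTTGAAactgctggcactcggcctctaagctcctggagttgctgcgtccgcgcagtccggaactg
Ccnd3, upstream window: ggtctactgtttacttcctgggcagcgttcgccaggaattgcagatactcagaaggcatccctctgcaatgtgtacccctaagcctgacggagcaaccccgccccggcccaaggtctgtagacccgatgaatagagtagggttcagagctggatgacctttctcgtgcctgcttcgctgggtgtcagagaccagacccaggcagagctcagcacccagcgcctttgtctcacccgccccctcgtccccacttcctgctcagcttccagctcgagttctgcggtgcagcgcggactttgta
Ccnd3, downstream window: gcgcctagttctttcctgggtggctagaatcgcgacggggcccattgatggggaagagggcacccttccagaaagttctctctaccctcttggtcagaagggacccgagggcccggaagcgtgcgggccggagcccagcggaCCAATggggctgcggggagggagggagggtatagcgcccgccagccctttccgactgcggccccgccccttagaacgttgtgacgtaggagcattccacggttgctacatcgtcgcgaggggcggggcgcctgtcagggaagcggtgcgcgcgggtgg
Ccne1: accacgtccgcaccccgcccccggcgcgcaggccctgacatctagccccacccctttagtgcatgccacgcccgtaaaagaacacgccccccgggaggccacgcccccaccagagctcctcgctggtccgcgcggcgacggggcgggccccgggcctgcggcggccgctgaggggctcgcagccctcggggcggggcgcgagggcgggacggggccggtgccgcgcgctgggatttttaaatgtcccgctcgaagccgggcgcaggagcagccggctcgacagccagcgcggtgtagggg
Cdk2: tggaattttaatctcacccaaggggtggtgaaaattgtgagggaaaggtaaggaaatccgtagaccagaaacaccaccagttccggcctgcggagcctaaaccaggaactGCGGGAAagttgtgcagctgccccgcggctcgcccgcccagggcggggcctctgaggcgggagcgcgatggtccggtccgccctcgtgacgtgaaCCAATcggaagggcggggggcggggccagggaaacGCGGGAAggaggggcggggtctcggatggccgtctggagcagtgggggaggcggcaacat

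The Cdk1 window held TTTGAA at positions -71 and -15 from the start site, CCAAT on the other strand, read as ATTGG, at -208, -80 and -48, and TTGGCGC at -178. The Cdk2 window held CCAAT at -45 and GCGGGAA, the other strand of TTCCCGC, at -140 and -10. In Ccnd3 only the downstream window had a match, CCAAT at -108, and the Ccne1 window had none. Of the promoters shown, Cdk1 alone held TTTGAA. Among 32851 promoters in the table, 17.9% held TTTGAA, 37.4% held CCAAT, 4.60% held TTCCCGC and 2.45% held TTGGCGC. A match describes letters only.

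Levels are on the authors' variance-stabilized scale, close to log2, on which 75.2% of probes had a mean under 7.5. Ccne1, Ccne2, Ccna2 and Ccnb2 lay in that dim range, where differences are compressed, so that the A- and B-type cyclins were barely measured, whereas the probes of Ccnd1, Ccnd2, Ccnd3, Cdk1 and Cdk2 were brighter. Within a diet, r between arrays ran from 0.971 to 0.995 across probes. HFD-ED replicates 2, 3 and 4 stood apart from the other mice with high erythroid markers, and HFD-ED replicate 1 did not. HFD-CO replicates 4 and 1 carried high pancreatic acinar markers (mean deviations of 4.68 and 1.12 log2 units from the 12-mouse mean). For these markers HFD-ED replicate 1 lay at 0.03 and control replicate 2 at 0.06, and the remaining mice lay between -0.82 and -0.55. These features are given beside the results they touch.

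None of the 9 genes passed an adjusted p of 0.05 between any diets (limma, Benjamini-Hochberg over all probes), and of all 45281 probes 0% passed in the comparison of HFD-ED with control, 0% in that of HFD-CO with control and 0.00221% in that of HFD-ED with HFD-CO. The smallest adjusted p of a member was 0.252, 1 and 0.337 in these comparisons. Differences are therefore given below as measured values. At an unadjusted p of 0.05, which 13.2% of genes met in HFD-ED against control, 7 of the 9 met it, 5 with the higher level on HFD-ED (Ccnd3, Ccne1, Ccne2, Ccna2 and Cdk1) and 2 with the lower (Ccnd1 and Ccnd2). In HFD-ED against HFD-CO, 6 of the 9 met it beside 11.9% of genes. Relative to control, 0 of the 9 met it on HFD-CO beside 5% of genes, and for 0 of the 9 the HFD-CO and control mice did not overlap, as was so for 3.32% of genes. The HFD-ED comparisons share the 4 HFD-ED mice and are not independent of each other. Among genes with a mean of 7.5 or more, where 25.1% met it in HFD-ED against control and 21.6% in HFD-ED against HFD-CO, 4 and 3 of the 5 brighter members did.

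**Figure D1:**
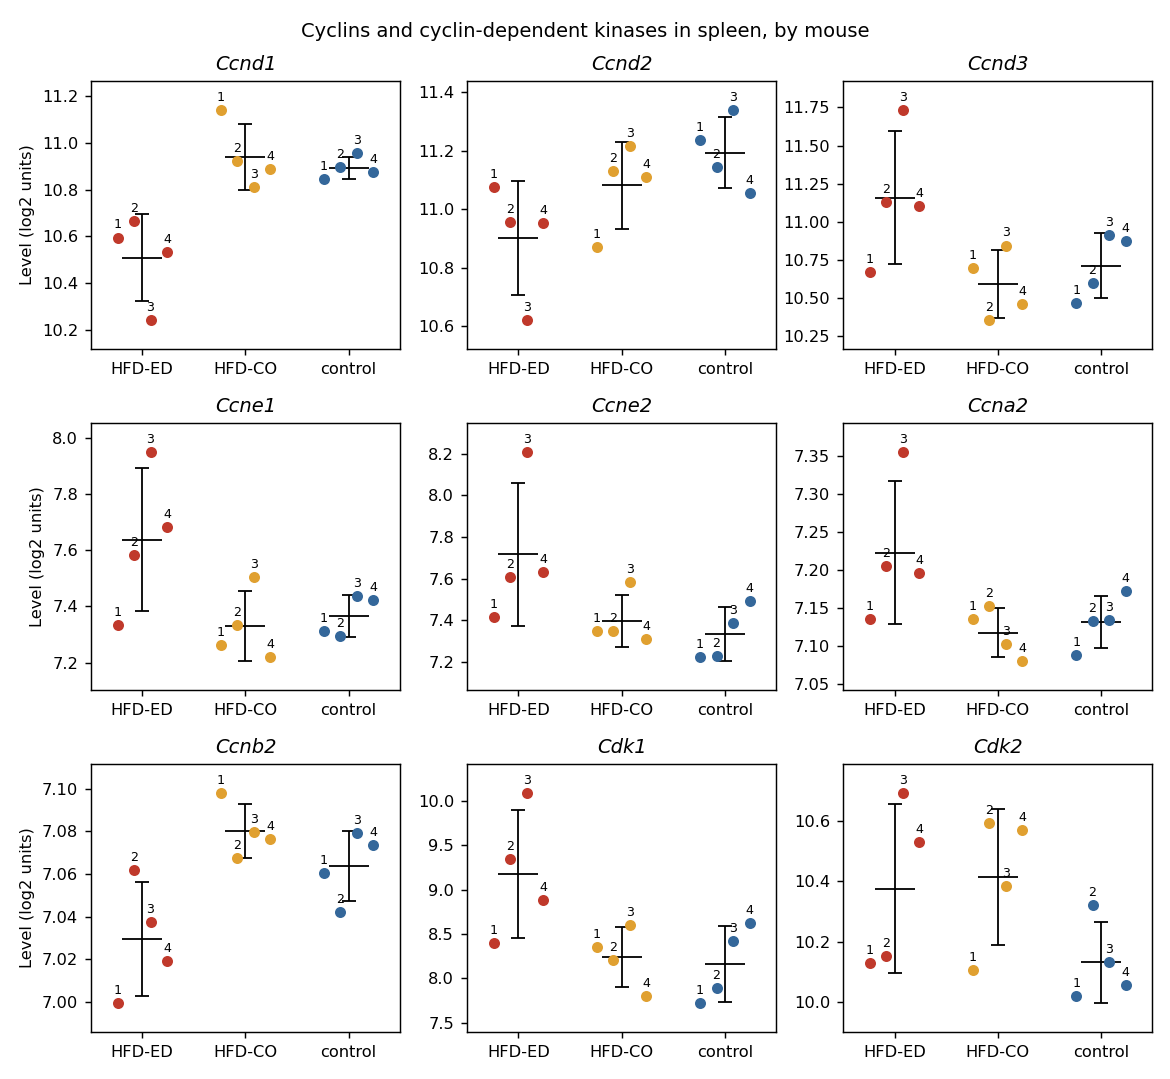
Level of each gene on the log2 scale (vertical axis, range set per gene) for the mice of HFD-ED, HFD-CO and control; points are single mice with their replicate number, and bars are the mean and SD of 4 mice. The 4 HFD-ED mice lie below all other mice for Ccnd1, and HFD-ED replicate 3 is the highest of all mice for Ccnd3, Ccne1, Ccne2, Ccna2, Cdk1 and Cdk2.

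The D-type cyclins differed in sign on HFD-ED, with Ccnd1 and Ccnd2 lower and Ccnd3 higher than on control. Ccnd1, the cyclin that links growth signals to G1 in many tissues, was lower in every HFD-ED mouse. Its level was 10.60, 10.66, 10.24 and 10.54 in the HFD-ED mice, 11.14, 10.92, 10.81 and 10.89 in the HFD-CO mice, and 10.85, 10.90, 10.96 and 10.87 in the control mice. The highest HFD-ED mouse lay below the lowest of the other 8 mice, and the HFD-CO and control mice overlapped. The difference was -0.38 ± 0.09 log2 units against control (SE, 4 mice each; limma adjusted p = 0.252; exact two-sided permutation p = 0.0286, the smallest that 4 against 4 mice allow) and -0.43 ± 0.09 against HFD-CO (limma adjusted p = 0.337; exact permutation p = 0.0286). Ccnd1 was the only member whose diets did not overlap in HFD-ED against control, a pattern that 5.49% of all genes shared.

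On all 3 Ccnd1 probes the HFD-ED mice lay below the control mice without overlap, by -0.38, -0.39 and -0.33 log2 units in order of brightness. Against HFD-CO the differences were -0.43, -0.33 and -0.19, and the dimmest probe overlapped there. Without HFD-ED replicate 3, the lowest mouse, the difference of the brightest probe from control was -0.29 (adjusted p = 0.422). Without HFD-ED replicate 1 it was -0.41 (adjusted p = 0.0856). HFD-CO minus control was 0.05, with a 95% interval of -0.15 to 0.24. Without HFD-CO replicate 4, which carried the pancreatic markers most strongly, HFD-ED minus HFD-CO was -0.45 for Ccnd1, 0.53 for Ccnd3 and 0.79 for Cdk1.

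Ccnd2, the D-type cyclin prominent in B lymphocytes, measured 11.08, 10.96, 10.62 and 10.95 in the HFD-ED mice, 10.87, 11.13, 11.22 and 11.11 in the HFD-CO mice, and 11.24, 11.14, 11.34 and 11.06 in the control mice. Of the HFD-ED mice 3 lay below all control mice, and replicate 1 lay just inside the control range. The difference was -0.29 ± 0.10 against control (adjusted p = 0.394; exact permutation p = 0.0571) and -0.18 ± 0.10 against HFD-CO (adjusted p = 0.637). The next brightest probe of Ccnd2 gave -0.28 against control, the third -0.07 and the dimmest -0.00. On the third probe all 4 HFD-CO mice lay above all control mice, by 0.24 ± 0.10 (adjusted p = 1), a pattern that the other Ccnd2 probes did not share.

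Ccnd3, the D-type cyclin that developing lymphocytes and, in mice, red cell precursors depend on, had the opposite sign. It measured 10.67, 11.13, 11.73 and 11.10 in the HFD-ED mice, 10.70, 10.36, 10.84 and 10.46 in the HFD-CO mice, and 10.47, 10.60, 10.92 and 10.87 in the control mice. HFD-ED replicates 2, 3 and 4 lay above all 8 other mice, and replicate 1 lay among them. The difference was 0.45 ± 0.20 against control (adjusted p = 0.484; exact permutation p = 0.114) and 0.57 ± 0.20 against HFD-CO (adjusted p = 0.473; exact permutation p = 0.0857). Without HFD-ED replicate 3 it was 0.26 against control. The dimmer Ccnd3 probes, with means of 7.47 and 7.15, gave 0.14 and -0.01.

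**Figure D2:**
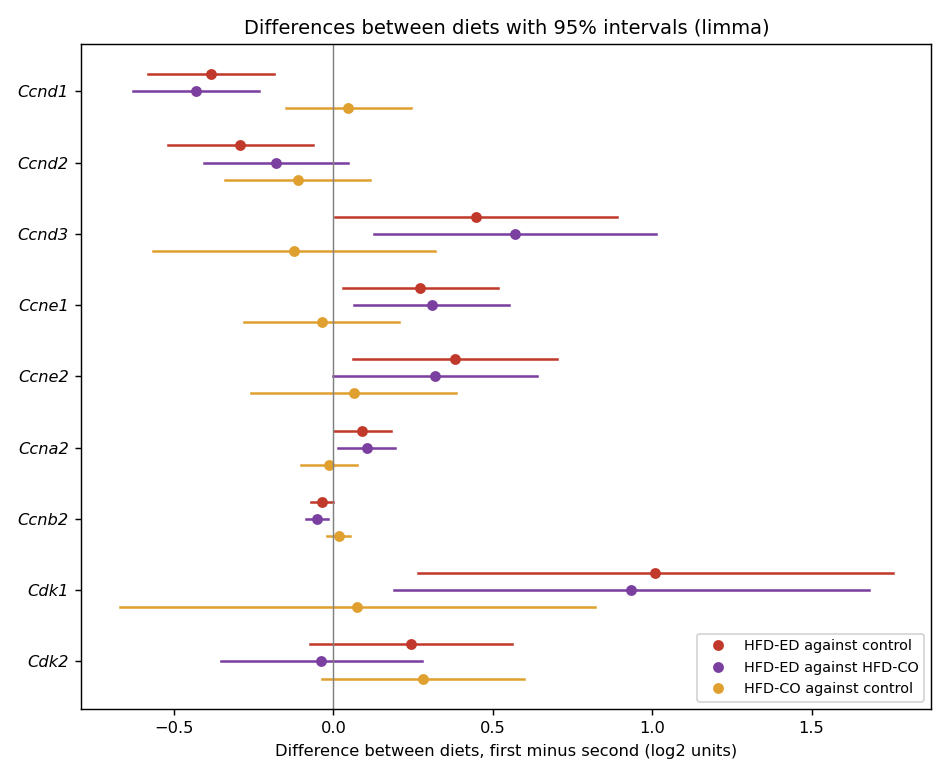
Difference between diets in log2 units (horizontal axis, first diet minus second) for each gene, with points for the limma estimate and lines for its 95% interval, 4 mice per diet. Ccnd1 lies left of 0 in both HFD-ED comparisons, Cdk1 lies right of 0 in both (1.01 and 0.94), and every HFD-CO against control interval holds 0.

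The E-type cyclins, which bind Cdk2 at the start of S phase, were both higher in 3 of the 4 HFD-ED mice. Ccne1 measured 7.34, 7.59, 7.95 and 7.68 in the HFD-ED mice, 7.26, 7.33, 7.505 and 7.22 in the HFD-CO mice, and 7.31, 7.29, 7.44 and 7.42 in the control mice. HFD-ED replicates 2, 3 and 4 lay above all other mice and replicate 1 lay among them. The difference was 0.27 ± 0.11 against control (adjusted p = 0.440; exact permutation p = 0.0857) and 0.31 ± 0.11 against HFD-CO (adjusted p = 0.473; exact permutation p = 0.0571).

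Ccne2 measured 7.42, 7.61, 8.21 and 7.63 in the HFD-ED mice, 7.35, 7.35, 7.58 and 7.31 in the HFD-CO mice, and 7.23, 7.23, 7.39 and 7.49 in the control mice. The same 3 HFD-ED mice were the highest, by a small margin over HFD-CO replicate 3. The difference was 0.38 ± 0.15 against control (adjusted p = 0.416) and 0.32 ± 0.15 against HFD-CO (adjusted p = 0.539), with an exact permutation p of 0.0571 in each. Leaving out HFD-ED replicate 3 gave 0.22 relative to control and 0.15 relative to HFD-CO, and the same differences for Ccne1 were 0.17 and 0.20. Each E-type cyclin had 1 probe, with a mean just under 7.5.

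Ccna2, the cyclin of S phase and G2, spanned little of the scale. It measured 7.14, 7.20, 7.36 and 7.20 in the HFD-ED mice, 7.14, 7.15, 7.10 and 7.08 in the HFD-CO mice, and 7.09, 7.13, 7.13 and 7.17 in the control mice. The order of the HFD-ED mice resembled that of the E-type cyclins, with replicate 3 highest and replicate 1 among the other diets. The difference was 0.09 ± 0.04 against control (adjusted p = 0.477) and 0.11 ± 0.04 against HFD-CO (adjusted p = 0.487).

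Ccnb2, a mitotic partner of Cdk1, was near the bottom of the scale and only 7.13% of probes had a lower mean. It measured 6.9997, 7.06, 7.04 and 7.02 in the HFD-ED mice, 7.10, 7.07, 7.08 and 7.08 in the HFD-CO mice, and 7.06, 7.04, 7.08 and 7.07 in the control mice. The 4 HFD-ED mice lay below all HFD-CO mice for Ccnb2 and for Ccnd1, a pattern that 4.54% of genes shared. The difference was -0.05 ± 0.02 against HFD-CO (adjusted p = 0.446; exact permutation p = 0.0286) and -0.03 ± 0.02 against control (adjusted p = 0.495), on a part of the scale where differences are compressed.

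Cdk1, the mitotic kinase, had the largest difference of the 9 genes and also the largest spread between mice. It measured 8.40, 9.34, 10.09 and 8.88 in the HFD-ED mice, 8.35, 8.21, 8.60 and 7.80 in the HFD-CO mice, and 7.73, 7.89, 8.43 and 8.63 in the control mice. HFD-ED replicates 2, 3 and 4 exceeded all 8 other mice, and replicate 1 lay within the range of both other diets. The means were 9.18 ± 0.72 on HFD-ED, 8.24 ± 0.34 on HFD-CO and 8.17 ± 0.43 on control (SD, n = 4 each). HFD-ED minus control was 1.01 ± 0.34 (SE), a ratio of 2.01 on this scale, with an adjusted p of 0.374 and an exact permutation p of 0.0857. HFD-ED minus HFD-CO was 0.94 ± 0.34 (adjusted p = 0.474; exact permutation p = 0.0571).

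The size of the Cdk1 difference depended on which HFD-ED mouse was left out. Against control it was 0.71 without replicate 3 (adjusted p = 0.585) and 1.27 without replicate 1 (adjusted p = 0.0931), so that it did not pass the threshold in either case. HFD-CO minus control was 0.08, with a 95% interval of -0.67 to 0.82. The other 2 Cdk1 probes, with means of 7.14 and 7.11, stayed close to the lower end of the scale and gave -0.01 and 0.03 against control.

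Cdk2, the kinase partner of cyclins E and A, differed in pattern on its brightest probe. That probe measured 10.13, 10.15, 10.69 and 10.53 in the HFD-ED mice, 10.11, 10.59, 10.38 and 10.57 in the HFD-CO mice, and 10.02, 10.32, 10.13 and 10.06 in the control mice. HFD-ED and HFD-CO overlapped almost fully, and 2 HFD-ED and 3 HFD-CO mice lay above all control mice. The difference from control was 0.24 ± 0.14 on HFD-ED (adjusted p = 0.616) and 0.28 ± 0.14 on HFD-CO (adjusted p = 1), and HFD-ED minus HFD-CO was -0.04, with a 95% interval of -0.35 to 0.28. On the dimmer Cdk2 probes the sign against HFD-CO turned, with 0.19, 0.10 and 0.10 (adjusted p of 0.605, 0.828 and 0.446), and on the second and the dimmest probe 3 of the 4 HFD-ED mice lay above all HFD-CO mice. The same probes gave 0.15, 0.19 and 0.16 for HFD-ED against control. On the dimmest the 4 HFD-ED mice lay above all control mice, by 0.16 ± 0.03 (adjusted p = 0.229; exact permutation p = 0.0286).

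**Figure D3:**
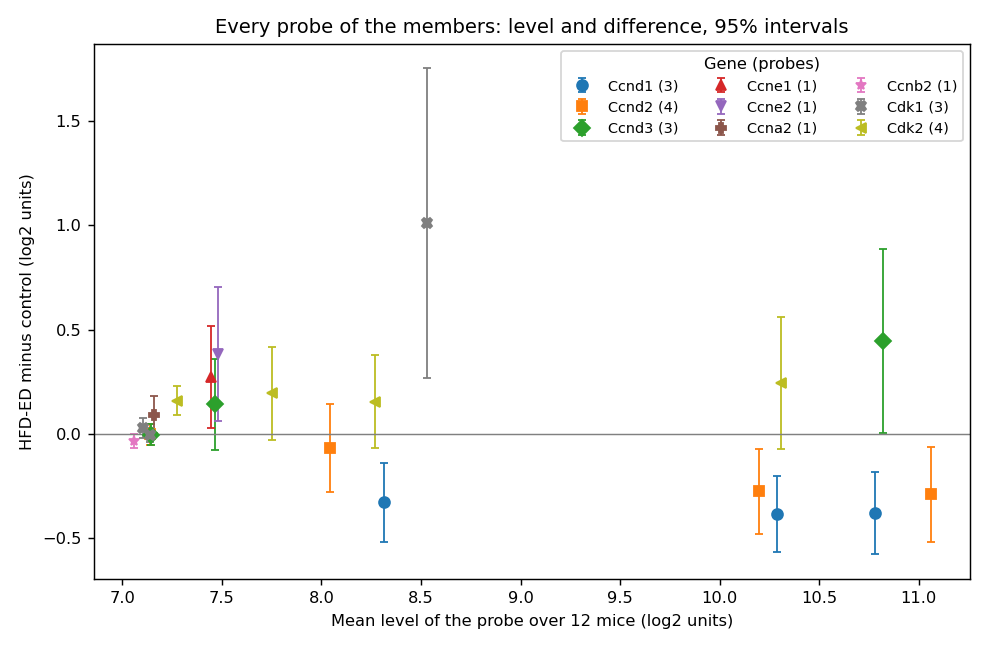
All 21 probes of the 9 genes, with the mean level over 12 mice on the horizontal axis and HFD-ED minus control on the vertical axis, both in log2 units; lines are 95% intervals from limma. The Ccnd1 probes agree at -0.33 to -0.39, whereas the probes of Ccnd3 and Cdk1 with means near 7.1 stay near 0.

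Across the classes, HFD-ED minus control averaged -0.08 log2 units over the 3 D-type cyclins, 0.33 over the E-type cyclins, 0.03 over Ccna2 and Ccnb2 and 0.63 over Cdk1 and Cdk2. The D-type mean joined opposite signs, and the median of its 3 genes was -0.29. Opposite signs were also joined for Ccna2 (0.09) and Ccnb2 (-0.03), and against HFD-CO for Cdk1 (0.94) and Cdk2 (-0.04). HFD-CO minus control averaged -0.06, 0.01, 0.00 and 0.18 in the same order of classes, and HFD-ED minus HFD-CO averaged -0.01, 0.31, 0.03 and 0.45. Over all 9 genes the median of HFD-ED minus control was 0.24, and over all 19057 genes it was -0.00. Without HFD-ED replicate 3 the number of members at an unadjusted p of 0.05 against control was 4 (Ccnd1, Ccnd2, Ccne2 and Cdk1) in place of 7.

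Mouse by mouse, the HFD-ED group differed within itself. The E-type mean deviated from its 12-mouse mean by -0.09, 0.13, 0.62 and 0.19 in HFD-ED replicates 1 to 4, and stayed between -0.20 and 0.08 in the HFD-CO mice and between -0.20 and -0.01 in the control mice. The mean of Cdk1 and Cdk2 deviated by -0.15, 0.33, 0.97 and 0.29 in the HFD-ED mice, by -0.23 to 0.08 in the HFD-CO mice and by -0.54 to -0.08 in the control mice. The D-type mean stayed between -0.11 and 0.03 in the HFD-ED mice, between -0.08 and 0.07 in the HFD-CO mice and between -0.04 and 0.18 in the control mice, since Ccnd3 offset Ccnd1 and Ccnd2. HFD-ED replicate 3 had both the lowest Ccnd1 and Ccnd2 and the highest Ccnd3, Ccne1, Ccne2 and Cdk1 of the 12 mice.

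**Figure D4:**
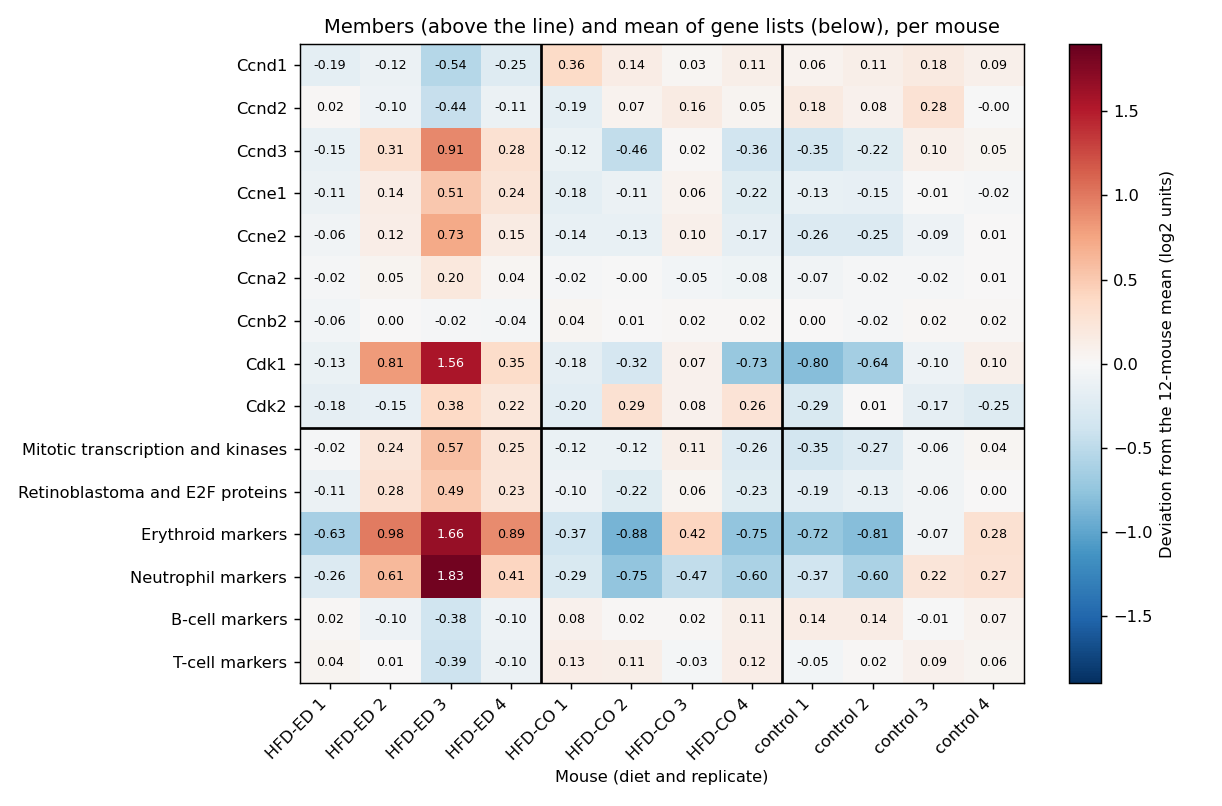
Deviation of each gene from its own 12-mouse mean (upper rows) and mean deviation of gene lists (lower rows) in log2 units, with mice in columns ordered HFD-ED, HFD-CO and control; red is higher and blue lower. HFD-ED replicate 3 shows 1.56 for Cdk1 and 1.66 for erythroid markers, and HFD-ED replicate 1 shows -0.13 and -0.63.

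Over the 12 mice, Ccnd3, Ccne1, Ccne2 and Cdk1 varied together. Pearson's r was 0.95 between Ccnd3 and Cdk1, 0.94 between Ccnd3 and Ccne1, 0.95 between Ccne1 and Ccne2 and 0.95 between Ccne2 and Cdk1 (n = 12, as a description). With diet means removed these were 0.93, 0.90, 0.94 and 0.91, and without HFD-ED replicate 3 they were 0.88, 0.86, 0.89 and 0.91. The dim Ccna2 varied with them, with r of 0.92 to Cdk1, 0.90 to Ccne2, 0.88 to Ccne1 and 0.88 to Ccnd3. In the same order these were 0.86, 0.86, 0.79 and 0.79 with diet means removed, and 0.82, 0.65, 0.70 and 0.69 without HFD-ED replicate 3. Ccnd1 ran the other way, with r of -0.75 to Ccnd3, -0.84 to Ccne1 and -0.75 to Cdk1, which shrank to -0.46, -0.65 and -0.48 without HFD-ED replicate 3. Cdk1 and Cdk2, by their brightest probes, had an r of 0.31, and -0.10 without that mouse. The points of a pair share the same arrays and the same cell make-up of each spleen. The Ccne1 window held no exact match, so no motif searched was found in the windows of Cdk1, Ccnd3 and Ccne1 alike. The search took exact letters within the printed windows only. Sites with other letters, or outside these windows, would have been missed. The search therefore cannot show whether Cdk1, Ccnd3 and Ccne1 have a site in common. Shared regulation of these genes was not tested.

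Erythroid, neutrophil and megakaryocyte markers were highest in HFD-ED replicates 2, 3 and 4, whereas the lymphocyte markers followed these mice less closely. The mean of 17 measured erythroid markers of 20 deviated by -0.63, 0.98, 1.66 and 0.89 log2 units in HFD-ED replicates 1 to 4. It deviated by -0.88 to 0.42 in the HFD-CO mice and by -0.81 to 0.28 in the control mice. All 17 had a higher mean on HFD-ED than control, 9 of them at an unadjusted p of 0.05, which 13.2% of all genes met. The 13 measured neutrophil markers of 14 deviated by -0.26, 0.61, 1.83 and 0.41 in the HFD-ED mice, by -0.75 to -0.29 in the HFD-CO mice and by -0.60 to 0.27 in the control mice. The 10 measured megakaryocyte markers of 12 deviated by 0.02, 0.34, 0.60 and 0.31 in the HFD-ED mice, by -0.29 to -0.16 in the HFD-CO mice and by -0.13 to -0.06 in the control mice, so that all 4 HFD-ED mice, replicate 1 included, lay above the rest. Of these markers 8 were higher at an unadjusted p of 0.05 in each HFD-ED comparison, beside 13.2% of all genes against control and 11.9% against HFD-CO that met it. B-cell markers (8 of 10 measured) deviated by 0.02, -0.10, -0.38 and -0.10 in HFD-ED replicates 1 to 4. They ran from 0.02 to 0.11 in the HFD-CO mice and from -0.01 to 0.14 in the control mice. T-cell markers (9 of 10) deviated by 0.04, 0.01, -0.39 and -0.10 in HFD-ED replicates 1 to 4. They ran from -0.03 to 0.13 on HFD-CO and from -0.05 to 0.09 on control. NK-cell markers (9 of 10) deviated by -0.12, -0.05, -0.24 and -0.04 in HFD-ED replicates 1 to 4, so that replicate 1 was the second lowest. They ran from -0.07 to 0.08 on HFD-CO and from 0.03 to 0.16 on control. Of the 9, 8 had a lower mean on HFD-ED than control, 4 at an unadjusted p of 0.05. Of 9 measured germinal centre and plasma cell markers 5 had a higher mean on HFD-ED than control and 4 a lower one. Of 8 red pulp macrophage markers 6 had a lower mean than control on HFD-ED, and 7 on HFD-CO. None of these markers passed an adjusted p of 0.05. The part of any of these cell types in the cyclin and kinase values was not tested.

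Around the members, 90 of 91 genes of the cell cycle lists were measured and 0 passed an adjusted p of 0.05 in any comparison. At an unadjusted p of 0.05, 24 were higher and 6 lower on HFD-ED than on control, 33.3% of the 90. The share was 13.2% over all genes and 25.1% over genes with a mean of 7.5 or more, and both also stand beside the list counts below. In HFD-ED against HFD-CO 24 were higher and 4 lower (31.1%), beside 11.9% of all genes and 21.6% of those with a mean of 7.5 or more. In HFD-CO against control 1 was higher and 2 were lower (3.33%), beside 5% of all genes. These lists were written with earlier results of these data known.

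The genes of the E2F system and those of mitosis mostly had higher means on HFD-ED. Of 13 retinoblastoma and E2F family genes 12 were higher than on control, 5 of them at an unadjusted p of 0.05, with a list median of 0.30. Rb1, the retinoblastoma protein that G1 kinases phosphorylate, averaged 10.17 ± 0.33 on HFD-ED and 9.62 ± 0.10 on control (SD, n = 4 each; difference 0.55, limma adjusted p = 0.305). Tfdp1, the dimer partner of E2F factors, differed by 0.43 (adjusted p = 0.423) and E2f6, a repressor of the family, by 0.31 (adjusted p = 0.405).

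Of 13 measured genes of mitotic transcription and kinases 10 had a higher mean on HFD-ED than control, 7 at an unadjusted p of 0.05, with a median of 0.22. Plk1, the polo-like kinase of mitosis, averaged 9.31 ± 0.43 on HFD-ED and 8.35 ± 0.47 on control (SD, n = 4 each; difference 0.96, limma adjusted p = 0.315). Bub1b, of the spindle checkpoint, differed by 0.80 (adjusted p = 0.303) and Mybl2, a transcription factor of the G2 and M genes, by 0.73 (adjusted p = 0.344). These sizes are close to that of Cdk1, on brighter probes than those of Ccna2 and Ccnb2.

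Genes that set the activity of the kinases or destroy the cyclins divided. The list of 8 activity genes mixes activators with Wee1 and Pkmyt1, the kinases that place inhibitory phosphates. Of the 8, 4 were higher on HFD-ED at an unadjusted p of 0.05, among them the phosphatases Cdc25b, Cdc25a and Cdc25c, which remove those phosphates (0.24, 0.24 and 0.15), whereas Wee1 and Pkmyt1 differed by 0.01 each. Of 18 cyclin destruction genes 10 were higher and 8 lower, with a median of 0.01. Cdc20, which directs the anaphase-promoting complex to the B-type cyclins, averaged 9.74 ± 0.41 on HFD-ED and 8.73 ± 0.56 on control (SD, n = 4 each; difference 1.01, limma adjusted p = 0.302). Skp2, a subunit of the ligase that marks the inhibitor p27 for destruction, differed by -0.11 (adjusted p = 0.423), and Fbxo5, an inhibitor of the anaphase-promoting complex, by 0.05 (adjusted p = 0.419).

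Of 8 inhibitor genes 3 were higher and 5 lower on HFD-ED. Cdkn3, a phosphatase that acts on Cdk2, differed by 1.05 (adjusted p = 0.389), close to Cdk1 in size. Cdkn2c, an inhibitor of Cdk4 and Cdk6, differed by 0.40 (adjusted p = 0.370), and Cdkn1a, the p53 target p21, by -0.15 (adjusted p = 0.344). The 16 other cyclins and 14 other cyclin-dependent kinases had medians of 0.00 and -0.00, with 8 and 7 genes higher. Their genes with the smallest p were Ccnf (0.09), Ccnl1 (-0.25) and Ccnh (0.15), and Cdk14 (-0.32), Cdk19 (-0.31) and Cdk13 (-0.17), with adjusted p from 0.251 to 0.592.

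**Figure D5:**
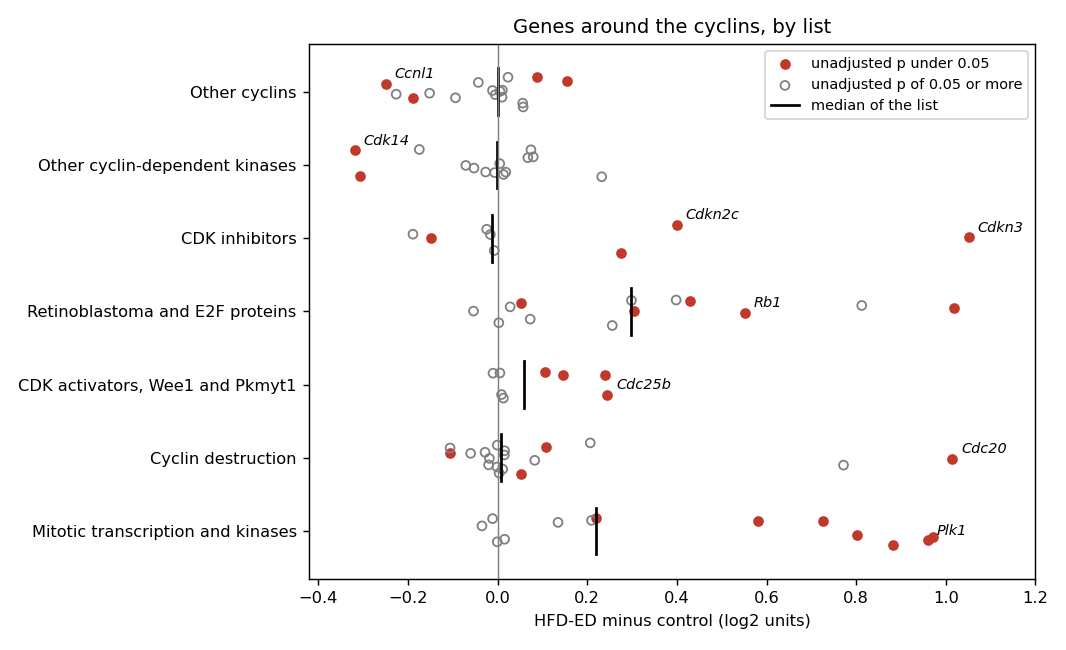
HFD-ED minus control in log2 units (horizontal axis) for the 90 measured genes around the cyclins, by list; filled points have an unadjusted p under 0.05, open points do not, and black bars are list medians. The medians of the E2F and mitotic lists lie at 0.30 and 0.22, and those of the other cyclins and kinases at 0.00.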

How the data were processed

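Spleen RNA of 12 mice was hybridized, each on its own array, to Illumina MouseWG-6 BeadChips. The authors transformed the intensities to stabilize their variance and quantile normalized them in lumi (version 2.18.0 per the labels). The deposited values approximate log2 and were used unchanged. For dim probes the transformation compresses differences. Probes were named through the platform annotation: 34885 of 45281 carried 1 symbol, 18 several and 10378 none, and no probe was annotated to Ccnb1. Every mapped column was used, and detection p-values were not. The labels give no slide or scan date.

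A gene was represented by its brightest probe, taken by mean over all mice. The diets were fitted together with limma 3.58.1 in R 4.3.3 (lmFit and eBayes, two-sided), and Benjamini-Hochberg adjustment covered every probe, with 0.05 as the threshold. Single genes were also compared by exact two-sided permutation tests, which went through every division of the mice compared (Python 3.11.15). On simulated arrays with 200 of 45281 probes shifted by 0.5 log2 units, the HFD-ED against control step called 87% to 92.5% of shifted probes in 5 draws. The shifted probes were picked at random, and 75.2% of all probes had a mean under 7.5. Simulated noise was independent between probes. The share therefore does not apply to genes with a larger spread between mice, such as Cdk1 (SD of 0.72 on HFD-ED). The number of arrays limits the precision.

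The genes and the lists around them were chosen with earlier results of these data known. Named were all members, up to 3 genes of each pathway list with the smallest p in HFD-ED against control, and for each member with a mean of 7.5 or more the 3 genes with the highest correlation. Alternatives were a block for the replicate number, array weights and other variance models, leaving out dim probes, 1 probe per symbol, other probes of a gene, other scalings, fits of the compared diets alone and leaving out each mouse. Promoters came from RefSeq (GRCm38.p6). The plasma measures and the real-time PCR were not used here.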

Additional observations from a re-analysis of the deposited data

Results flagged for a closer look

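Of 39 sets of 4 mice tested (each gene and each class of genes in each diet), 1 held a mouse far from the other 3, and chance alone gives about 1 in 20. Ccne2, the E-type cyclin, measured 7.58 in HFD-CO replicate 3, where the nearest HFD-CO mouse had 7.35 and the lowest 7.31, so that the gap was 0.859 of the range of that diet. The mouse lay below the lowest of HFD-ED replicates 2, 3 and 4 and above all control mice.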

How the results depend on the processing

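No member passed an adjusted p of 0.05 in any comparison under any alternative; the smallest adjusted p of a member, without HFD-ED replicate 1, was 0.0856 against control and 0.0845 against HFD-CO. With the replicate block 0 members were called (smallest adjusted p 0.216 in HFD-ED against control), although replicate numbers did not pair mice: 4 of 12 equal-numbered pairs correlated above 0.1, and 3 of 12 mice best matched their own number. Probes called in HFD-ED against control numbered 0, 3 with 1 probe per symbol, and 0 to 87 with a mouse left out (87 without HFD-ED replicate 1). In HFD-ED against HFD-CO 1 was called, 0 with the replicate block, a variance trend, the dim filter, the compared diets alone or cyclic loess, and 0 to 46 with a mouse left out (46 without HFD-ED replicate 1). With the median for the mean, the D-type class differed by -0.29 against control and -0.21 against HFD-CO, and with all probes averaged the kinases differed by 0.27 against control. Of the alternative values of single members 16 changed sign and 581 did not, and many of the 581 could not change. The replicate block, a variance trend, robust variances, the dim filter, 1 probe per symbol and the compared diets alone leave each difference as it was. So does leaving out a mouse of the diet that is not compared. With the dimmest probe, Ccnd3 was -0.0051 in HFD-ED against control, and Ccnd2 was 0.0059 and Cdk2 0.10 in HFD-ED against HFD-CO. With all probes averaged, Cdk2 was 0.0897 there, and HFD-CO against control gave -0.0467 for Ccnd1 (-0.13 with the dimmest probe) and 0.0056 for Ccnd2. With a mouse left out, HFD-CO against control ran from -0.0194 to 0.0900 for Ccnd1, from -0.0942 to 0.00032 for Ccne1 and from -0.0712 to 0.23 for Cdk1, and HFD-ED against HFD-CO from -0.14 to 0.0444 for Cdk2. The causes were not tested. Signal over background limits Ccne1, Ccne2, Ccna2 and Ccnb2, whose means lie under 7.5.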

Other observations

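The genes whose levels over the 12 mice most resembled those of the brighter members differed from gene to gene. Among 7009 genes with a mean of 7.5 or more, Cdk1 was most like Troap (r = 0.99), Sgo2a, the centromere cohesion protein shugoshin 2 (0.99), and Fen1, the flap endonuclease of DNA replication (0.98), and these were 0.97, 0.98 and 0.97 with diet means removed. Ccnd3 was most like Minpp1, an inositol phosphate phosphatase, Tab3 and Carhsp1 (0.98 each; 0.98, 0.97 and 0.97 with diet means removed). Ccnd1 was most like the interferon-inducible Ifi27l2a (0.94), Zhx2 (0.93) and Tex264 (0.93), which were 0.78, 0.85 and 0.88 with diet means removed, and Ccnd2 like Msc (0.92), Mob3a (0.92) and Fam167a (0.91). Cdk2 had the lowest of these values, with Chfr, a mitotic checkpoint ligase (0.85), Med18 (0.84) and Mir17hg (0.83). The points of each pair come from the same 12 arrays, and the genes were picked as the highest of many.

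The promoters of the B-type cyclins also held matches to the motifs searched. The Ccnb2 window, chr9:70421505-70421804 on the minus strand of GRCm38.p6, held TTTGAA at -167 and 5 and CCAAT at -87, -54 and -21 from the start site, and the Ccnb1 window held CCAAT at -99 and -67, the first overlapped by GCGCCAA at -102.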
